A study of Mus musculus with 2 samples.

Results

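The first 24 h of organ culture were followed in XY germ cells of the mouse foetal testis. The comparison used 8 of the 40 germ cell libraries of the study, chosen by their labels: 4 libraries of XY germ cells sorted from gonads at 0 h (replicates 2, 3, 5 and 6) and 4 sorted after 24 h with the vehicle DMSO (replicates 2, 3, 4 and 5). Gonads with attached mesonephros came from E12.5 embryos carrying Oct4(Pou5fl)-eGFP, a green fluorescent reporter of germ cells, on a 129svJT2 background crossed to ASMU Swiss mice, and all embryos were wild type otherwise. The mesonephros was removed, several gonads were pooled for each library, and GFP-positive cells were collected by fluorescence-activated sorting. RNA was counted as unique molecular identifiers (UMIs) at poly(A) tails. Both groups were in the same sequencing pool. No group was taken from the embryo at the age that the cultured gonads had reached, so the effect of culture and the effect of a further day of development cannot be told apart. The 8 libraries of XX germ cells at 0 h and after 24 h with DMSO, which were treated alike, served for comparison. Levels are also given for 4 XY libraries after 24 h with the MEK inhibitor (MEKi, 500 nM, same pool) and 4 XY libraries after 72 h with DMSO (second pool), from the same kind of gonads.

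At the start of this interval, testis cords have formed and XY germ cells still divide and express pluripotency genes. Over the following days they normally stop dividing in G1, lower pluripotency genes and start a male programme in which Nanos2, an RNA-binding repressor, represses meiotic genes. XX germ cells at the same age instead begin meiosis, which Stra8 starts in response to retinoic acid and BMP. NODAL and its co-receptor Tdgf1, with the feedback inhibitors Lefty1 and Lefty2, and the FGF to MEK to ERK pathway are signals known to act in XY germ cells in this window.

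Each library held 1178953 to 3894977 counts, the shallowest being 0 h replicate 5, and 18172 to 22218 genes had a count. Levels are CPM, a library's counts scaled to the same total with TMM factors. The germ cell genes Ddx4 (225 ± 17.9 at 0 h and 240 ± 40.1 CPM at 24 h, SD, n = 4 each), Dazl (1076 ± 102 and 1451 ± 194 CPM) and Dppa3 (1522 ± 202 and 1995 ± 462 CPM) were abundant in both groups, and none of these passed the test for a change. The Y-linked Eif2s3y was at 97.6 to 137 CPM in the 8 libraries. Markers of other gonadal cells varied in level. At 0 h the collagen gene Col1a2 had a mean of 100 CPM and the haemoglobin gene Hba-a1 69.1 CPM. The median over all genes tested was 20 CPM. Ptprc, the pan-leukocyte marker, had at most 1 count in any library, and Amh, a Sertoli cell hormone, had at most 3. The summed level of the 23 interstitial and other somatic markers was 177 to 428 CPM at 0 h and 84.7 to 117 CPM at 24 h, and that of the 13 endothelial markers was 36.1 to 51.8 and 23.8 to 33.3 CPM, so both ranges were lower at 24 h without overlap. The 16 Sertoli cell markers summed to 60.7 to 118 and 67.6 to 351 CPM, and the 20 blood markers to 63.1 to 397 and 46.1 to 152 CPM. Sox9, the Sertoli cell determinant, was at 60.1 CPM in 24 h replicate 2 against 7.56 to 18.8 CPM in the other 24 h libraries, and that library had the highest somatic share at 24 h (0.0456%). In a principal component analysis of 2000 variable genes, the first component (52.5% of the variance) separated 0 h from 24 h, and on the second (14.6%) 0 h replicate 5 stood apart from the other 0 h libraries. That library also had the highest share of counts from gonadal somatic markers (0.0566% against 0.0282% to 0.0309%) and from mitochondrial genes (1.97%). Over the groups, the shares of mitochondrial (1.56% ± 0.323 and 1.53% ± 0.203), ribosomal protein (3.79% ± 0.425 and 4.29% ± 0.404), somatic and blood genes showed no difference that passed the two-sided exact permutation test (adjusted p = 0.943 for mitochondrial genes and 0.533 for the others). The smallest p that 70 regroupings allow is 0.0286, or 0.114 adjusted for a single class among the 4, so this test could not have called a difference in 1 class alone.

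Sample indexes were used again in the second pool. Each 0 h library shared its index with an XY 72 h DMSO library, and each 24 h library with an XY 72 h MEKi library (72 h with an inhibitor of MEK). Y-linked counts in XX libraries whose index partner was XY gave an estimated 4.2% of the partner's counts as the size of any such sharing, and this amount was subtracted as an alternative. The subtracted values are given below for the named XY changes that were lost or moved by over 1.5 times.

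Over the 24 h, 449 of 15252 genes tested (2.94%) were differentially expressed genes (DEGs), with a fold change tested against 1.5 at FDR under 0.05. Of these, 246 (1.61% of genes tested) were higher and 203 (1.33%) lower at 24 h. The median log2 fold change over all genes tested was 0.017. The 4 libraries of one group did not overlap the 4 of the other for 238 of the 246 higher and 199 of the 203 lower DEGs, while over all genes tested 10.1% were higher and 10.9% lower without overlap. More than 4-fold changes were seen for 127 higher and 76 lower DEGs, and more than 8-fold for 34 and 18. The median level in the group where the gene was higher was 25.1 CPM for higher and 32 CPM for lower DEGs, and of 2933 genes over 100 CPM, 60 were DEGs. Of the DEGs, 223 higher and 195 lower were protein coding, and the share of such genes among all genes tested is not given here. On chromosome X, which held 635 of the genes tested, 15 were higher and 5 lower. Without 0 h replicate 3 the DEGs numbered 263, and these held 131 of the 246 higher and 124 of the 203 lower DEGs. Without 24 h replicate 5 they held 183 and 111. With the index partners' counts subtracted, 234 of the higher and 191 of the lower DEGs were called. The values are for sorted populations, in which fewer cells of a kind and less RNA per cell cannot be told apart. The gene lists used below were chosen with earlier results of these data known. Their shares beside those of all genes are therefore a description and not independent support.

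**Figure D1:**
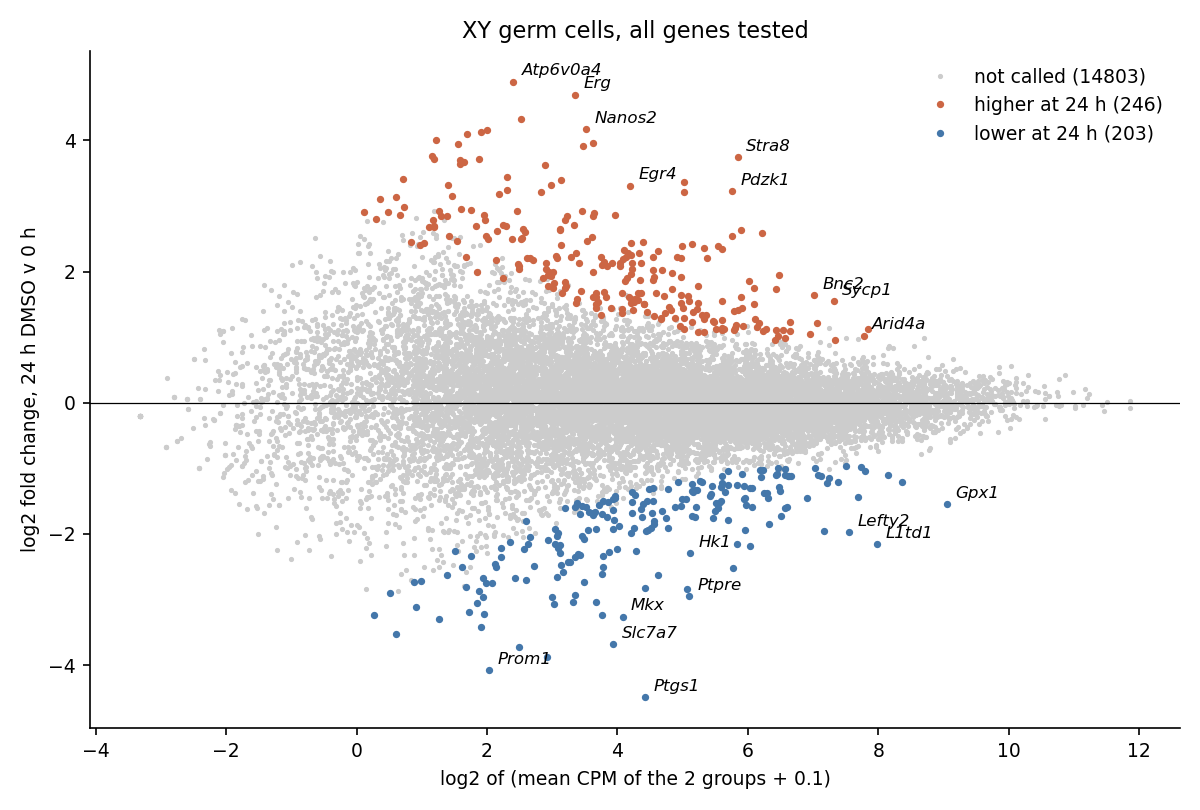
Log2 fold change of each gene between 24 h DMSO and 0 h (vertical axis) against its mean level (horizontal axis, log2 of the mean CPM plus 0.1). Orange points are the 246 genes called higher, blue points the 203 called lower, and grey points the genes that were not called. The largest changes, such as those of Atp6v0a4, Erg and Ptgs1, lie at low to middle levels.

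The largest increases were from near absence. Atp6v0a4, a subunit of the vacuolar proton pump, had 1.75, 0, 0 and 0 CPM in the 0 h libraries and 8.3, 13, 8.25 and 10.3 CPM at 24 h. The log2 fold change of Atp6v0a4 was 4.90 ± 0.72 (SE, FDR = 2.26e-05). Erg, an ETS transcription factor, was at 0.439 to 0.891 CPM at 0 h and at 19.2, 15.1, 18.9 and 24.9 CPM at 24 h, a 25.9-fold rise (FDR = 1.90e-08). The genes named in this paragraph and the next were chosen from DEGs without overlap between the groups, so separation of their libraries was set by that choice. For Erg, 4.2 of 6 counts at 0 h were expected from the index partners, and after subtraction its log2 fold change went from 4.70 to 5.63. Asb9, a substrate adaptor of ubiquitin ligases, rose 20.1-fold, Fam3d 17.1-fold, Ccdc141 15.6-fold, Abcd2, a peroxisomal fatty acid transporter, 15.0-fold and Eya2, a transcriptional co-activator, 12.3-fold. For Abcd2, 11.4 of 15 counts at 0 h were expected from the partners, and after subtraction its log2 fold change went from 3.91 to 4.62. Septin12, a cytoskeletal GTPase, had no count in the 0 h libraries and 1.56, 11.5, 1.38 and 2.98 CPM at 24 h, which is at least 14.2-fold higher when 0 h is set to 3 counts over the group. Without 24 h replicate 3, which stood apart, the bound was 6.44-fold. Septin12 was not tested after subtraction.

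The largest decrease was that of Ptgs1, the constitutive cyclooxygenase of prostaglandin synthesis. Its level was 36.4, 45.9, 47.2 and 34.9 CPM at 0 h and 0.518, 2.6, 2.06 and 2.16 CPM at 24 h. This was a 22.4-fold fall (FDR = 1.95e-09). Prom1, the membrane protein prominin 1, went from 6.58, 7.52, 8.91 and 7.05 CPM to 0, 0, 1.72 and 0.271 CPM (log2 fold change -4.07, FDR = 1.77e-04). Both genes were chosen from DEGs without overlap. Ildr1, a tricellular junction protein, fell 14.7-fold, Otog 13.3-fold, Slc7a7, a cationic amino acid transporter, 12.8-fold, Mkx, a homeobox factor, 9.59-fold, Dsp, the desmosomal plaque protein desmoplakin, 9.46-fold, Ptpre, a receptor tyrosine phosphatase, 7.70-fold and Fermt1, an integrin activator, 7.64-fold. Ptgs1 was the DEG among the 5 tested genes of prostaglandin synthesis and receptors (20%, against 1.33% of all genes tested).

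The promoters of the genes at both ends of the range are shown here, as the 250 bases before the RefSeq start (GRCm38.p6, first start listed for each gene). Of the 449 DEGs, 338 had a RefSeq promoter entry. The strings searched on both strands were CACGTG (in 6.02% of the 32851 promoter windows of this length), with TGACGTC (in 2.78%), then GGGCGG (in 32.7%), also CCGGAAG (in 6.91%), the shorter ACGTG, which lies within the first string (in 16.6%), and lastly CAGACA (in 17.1%). Matches are in capitals.
Atp6v0a4 (higher, chr6:38124587-38124836, minus strand): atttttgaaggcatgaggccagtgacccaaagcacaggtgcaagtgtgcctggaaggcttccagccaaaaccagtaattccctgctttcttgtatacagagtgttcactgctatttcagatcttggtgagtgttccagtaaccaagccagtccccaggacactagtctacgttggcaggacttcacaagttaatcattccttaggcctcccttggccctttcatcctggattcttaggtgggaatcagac
Erg (higher, chr16:95586594-95586843, minus strand): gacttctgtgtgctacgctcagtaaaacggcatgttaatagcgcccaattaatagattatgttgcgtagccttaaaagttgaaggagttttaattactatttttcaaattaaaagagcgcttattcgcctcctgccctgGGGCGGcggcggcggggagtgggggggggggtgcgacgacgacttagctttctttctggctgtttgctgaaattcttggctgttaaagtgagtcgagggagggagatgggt
Ptgs1 (lower, chr2:36230176-36230425, plus strand): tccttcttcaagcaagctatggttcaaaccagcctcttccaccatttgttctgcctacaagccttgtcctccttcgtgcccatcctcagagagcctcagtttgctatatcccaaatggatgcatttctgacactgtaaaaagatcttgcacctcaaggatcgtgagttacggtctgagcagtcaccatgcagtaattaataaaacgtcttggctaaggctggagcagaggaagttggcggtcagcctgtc
Prom1 (lower, chr5:44101737-44101986, minus strand): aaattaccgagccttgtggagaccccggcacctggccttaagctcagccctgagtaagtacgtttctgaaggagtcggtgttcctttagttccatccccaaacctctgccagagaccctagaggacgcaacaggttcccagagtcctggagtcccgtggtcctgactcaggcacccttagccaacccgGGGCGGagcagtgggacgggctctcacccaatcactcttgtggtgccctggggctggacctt
GGGCGG was matched once in Erg and once in Prom1, a gene that rose and a gene that fell. No string was matched in the windows of Atp6v0a4 or Ptgs1.

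Nanos2, Egr4, Ret, Cdkn1b and Brdt of the male programme rose. Of 23 tested genes of male germline differentiation, 5 were higher (21.7%, against 1.61% of all genes tested) and 2 lower (8.7%, against 1.33%), and the median log2 fold change was 0.59. Leaving out single libraries gave 4 to 6 higher and 1 or 2 lower, with both decreases called only without 0 h replicate 6. Without subtraction, 8 genes of the list were higher and 1 lower in XX germ cells, with a median of 1.12. For none of the 5 genes did the change in XY less that in XX pass the test (FDR = 0.529 for Nanos2). With 4.2% of partner counts subtracted, it passed for Nanos2 (FDR = 0.0139) and Egr4 (FDR = 0.025). At a share of 3.25% it did not (FDR = 0.0513 and 0.12). Nanos2, on chromosome 7 (GRCm39, 18721325 to 18722887), was at 0.439, 1.3, 0.891 and 0.784 CPM at 0 h and at 11.9, 37.5, 13.8 and 24.1 CPM at 24 h. It was low in each 0 h library and higher in each 24 h library, where it varied widely. The log2 fold change was 4.17 ± 0.57 (FDR = 9.37e-06). Its 9 counts at 0 h compare with 8.81 expected from the index partners, and after subtraction the log2 fold change was 5.77 (FDR = 3.30e-07). Egr4, an early growth response factor, rose 9.90-fold (3.16 ± 1.93 to 33.2 ± 13.4 CPM, FDR = 8.06e-06). Of its 35 counts at 0 h, 23.9 were expected from the index partners, and after subtraction its log2 fold change went from 3.31 to 4.52. Ret, the GDNF receptor of spermatogonial stem cells, rose 4.38-fold (FDR = 3.95e-04), Cdkn1b, the cyclin-dependent kinase inhibitor p27, 3.06-fold (FDR = 0.0295) and Brdt, a testis bromodomain protein, 2.43-fold (FDR = 5.68e-04). Cdkn1b was not called under 7 of 20 alternatives, for example without 0 h replicate 3 (FDR = 0.437). Zbtb16, a spermatogonial stem cell factor named here after its values were seen, rose 9.44-fold (FDR = 0.00596). Of the 10 counts of Zbtb16 at 0 h, 7.26 were expected from the partners, and its log2 fold change went from 3.24 to 4.06 after subtraction. It was not called without 0 h replicate 6. Nanos3, an RNA-binding factor of early germ cells, was at 40.8, 36.3, 49.9 and 37.2 CPM at 0 h and 79.8, 126, 41.9 and 99.5 CPM at 24 h. Its groups overlapped and it was not called (log2 fold change 1.08, FDR = 0.171).

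**Figure D2:**
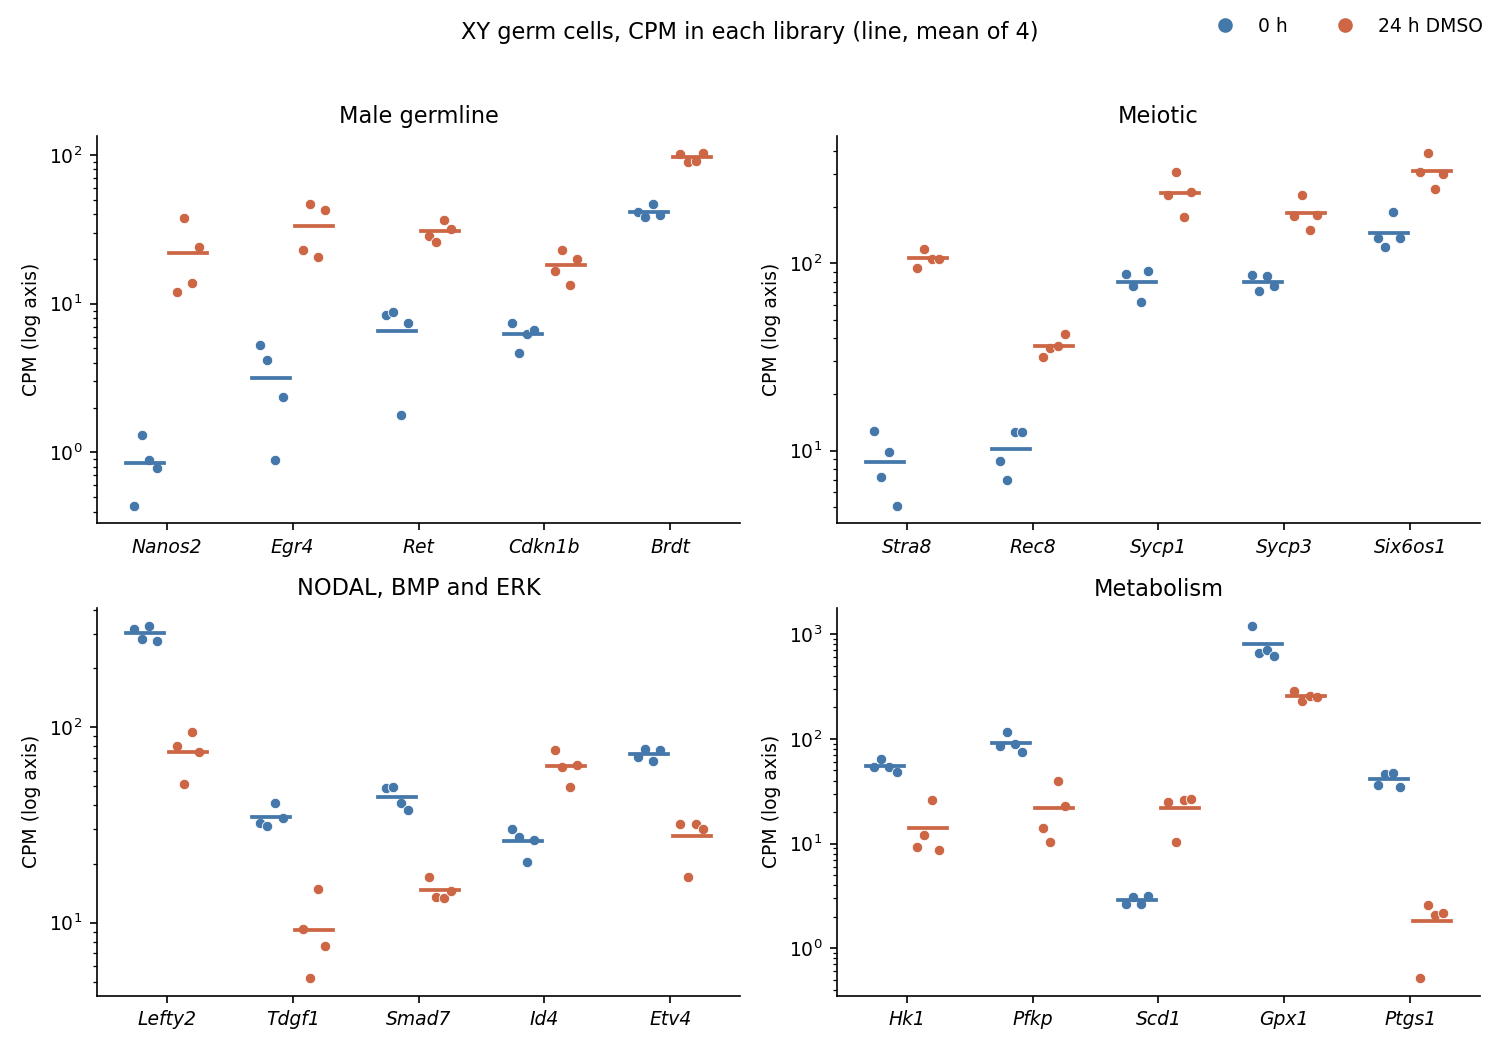
CPM in each library (log axis) for 5 genes in each of 4 groups, with 0 h libraries in blue, 24 h DMSO libraries in orange and a line at the mean of 4. For each gene drawn, such as Nanos2 at 0.439 to 1.3 and 11.9 to 37.5 CPM, the 24 h libraries do not overlap the 0 h libraries.

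The fetal male genes Dnmt3l, a cofactor of de novo DNA methylation, and Nxf2, an RNA export factor, were not called. Dnmt3l had 15 counts over the 24 h libraries, of which 9.4 were expected from index partners. The 0 h libraries held 30 counts of Dnmt3l, with 45.5 expected. For Nxf2, 311 of 377 counts at 0 h and 247 of 510 at 24 h were expected from partners. After subtraction the log2 fold change of Nxf2 went from -0.04 to 0.81 and was not called. Of the germ cell identity list, 2 of 22 genes were called, both also on the lists above and below (Brdt and Sycp3), which is 9.09% against 1.61% of all genes tested. Leaving out single libraries gave 1 to 3, with Sycp3 lost without replicate 3 of either group and Nanos3 gained without 24 h replicate 4. None of 25 tested genes of the piRNA pathway, which silences transposons in the male germline, was called, which is near the background of 2.94% of all genes tested, and their median was 0.34. By edgeR, 1 of them was higher. These calls were made without subtraction of index partners. At 0 h, 94.9 of the 122 counts of Tdrd9 were expected from partners, and at 24 h 46.4 of 73. After subtraction, log2 fold changes went from -1.07 to 0.02 for Tdrd9 and from 0.73 to 2.07 for Gtsf1. Those of Asz1 and Fkbp6 moved little (0.34 to 0.39 and -0.29 to -0.30). Whether partner counts hid a rise was not tested. The Rhox homeobox genes of chromosome X gave the 2 decreases of the male germline list. Rhox6 went from 6.14, 8.3, 8.02 and 5.49 to 1.04, 0.521, 3.09 and 0.541 CPM (6.69-fold lower, FDR = 0.00290), and Rhox9 fell 5.47-fold (FDR = 0.0402). Rhox9 was not called under 12 of 20 alternatives, among them the subtraction of index partners (FDR = 0.0575). In the whole cluster, which was looked up after these values were seen, 4 of 21 tested genes were lower (19%, against 1.33% of all genes tested), including Rhox4a (5.61-fold, FDR = 0.0423) and Rhox4c (10.7-fold, FDR = 0.00751), and none was higher. Rhox4a was not called under 8 of 20 alternatives, and 1 to 4 genes of the cluster were called when single libraries were left out, with 1 without 0 h replicate 3 or 24 h replicate 5. The Rhox4 copies are nearly identical, so the counts of single copies are uncertain.

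Stra8, Rec8 and 5 other genes of meiotic entry and prophase rose. Of 44 tested, 7 were higher (15.9%, against 1.61% of all genes tested) and none lower, with a median of 0.51 and 35 of 44 above 0. Stra8 was at 12.7, 7.26, 9.8 and 5.09 CPM at 0 h and at 94.4, 120, 106 and 106 CPM at 24 h. The log2 fold change was 3.74 ± 0.38 (FDR = 1.69e-08), with all 24 h libraries close to each other. Its index partners, XY cells after 72 h with MEKi, accounted for an expected 564 of its 1111 counts at 24 h, and after subtraction the log2 fold change was 3.52 (FDR = 4.72e-05). Rec8, the meiotic cohesin subunit, was at 8.77, 7, 12.5 and 12.5 CPM and then at 31.6, 35.4, 36.4 and 41.9 CPM (4.08-fold, FDR = 1.47e-04), with 93 of 390 counts expected from the partners. The synaptonemal complex genes Sycp1 (79.2 ± 13 to 239 ± 53.8 CPM, 2.93-fold, FDR = 7.52e-07), Sycp3 (2.33-fold, FDR = 0.0106) and 4930447C04Rik, also named Six6os1 (145 ± 28.7 to 312 ± 57.1 CPM, 2.19-fold, FDR = 0.00122), were among the DEGs of highest level. Meiob, a recombination factor, rose 6.24-fold (FDR = 0.0136) and Msh4, a crossover factor, 4.67-fold (FDR = 0.0412). All 7 were also called after index subtraction, where FDR was 0.0431 for Meiob, 0.0223 for Msh4 and 0.0116 for Sycp3. Msh4 was lost under 11 of 20 alternatives, and 3 to 7 genes of the list were called when single libraries were left out, the fewest without 0 h replicate 3. Dmc1, the meiotic recombinase, was at 5.90 ± 3.54 and 9.31 ± 2.39 CPM and was not called.

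In the retinoic acid list, 1 of 12 tested genes was called (8.33%, against 1.61% of all genes tested). Aldh1a2, which makes retinoic acid, went from 6.38 ± 1.25 to 18.8 ± 7.21 CPM (2.85-fold, FDR = 0.0469), and was not called under 11 of 20 alternatives, including the subtraction of index partners (FDR = 0.0823).

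Of 18 tested genes of NODAL signalling, 2 were lower (11.1%, against 1.33% of all genes tested) and none higher. Lefty2, an extracellular NODAL inhibitor and itself a target of the pathway, was at 319, 282, 331 and 276 CPM at 0 h and 79.8, 51.1, 94.2 and 74.9 CPM at 24 h. Lefty2 fell 3.93-fold (FDR = 6.78e-12), the lowest FDR among the XY changes given here. Tdgf1, listed as Cripto in the annotation, fell 3.83-fold, from 32.5, 31.4, 41 and 34.5 to 9.33, 5.21, 14.8 and 7.57 CPM (FDR = 1.64e-04). Lefty1 was at 157 ± 10.2 and 99.2 ± 27.5 CPM and Nodal at 15.0 ± 5.38 and 6.27 ± 3.38 CPM. Lefty1 did not overlap between the groups, as was so for 10.9% of all genes tested in this direction. Neither Lefty1 nor Nodal passed the test (FDR = 1 and 0.480).

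Id4 rose and Id3 and Smad7 fell among BMP targets and components, which is 1 of 17 higher (5.88%, against 1.61% of all genes tested) and 2 lower (11.8%, against 1.33%). Leaving out single libraries gave 0 to 1 higher, with 0 without 0 h replicate 3, and 1 to 3 lower, with 1 without 0 h replicate 2 or 3 or 24 h replicate 4 or 5, and 3 without 0 h replicate 6. Id4, an inhibitor of basic helix-loop-helix factors, rose 2.34-fold (30.3, 27.5, 20.5 and 26.6 to 76.2, 62.5, 49.5 and 63.8 CPM, FDR = 0.0109), while its relative Id3 fell 2.46-fold (110, 118, 52.6 and 85.8 to 51.3, 35.4, 36.4 and 34.4 CPM, FDR = 0.0127). The 0 h libraries of Id3 varied widely, and 7 of 20 alternatives did not call it. Smad7, a feedback inhibitor of NODAL and BMP receptors, fell 3.02-fold (44.2 ± 5.84 to 14.7 ± 1.71 CPM, FDR = 3.80e-05). Id1 and Id2 were not called, with log2 fold changes of -0.66 and -1.24.

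Etv4, Etv1 and Dusp4 fell among ERK targets and feedback inhibitors. These were 3 of 15 tested (20%, against 1.33% of all genes tested), with none higher, a median log2 fold change of -0.85 and 2 of 15 above 0. Etv4, an ETS factor induced by ERK, was at 70.6, 77.6, 66.8 and 76.4 CPM at 0 h and 32.1, 17.2, 32 and 30.3 CPM at 24 h (2.55-fold lower, FDR = 5.57e-04). Etv1 fell 2.14-fold (FDR = 0.0225) and Dusp4, an ERK phosphatase, 2.17-fold (FDR = 0.0168), and these were lost under 6 and 4 of 20 alternatives. Etv5 (237 ± 16.2 and 127 ± 31.5 CPM, FDR = 0.172) and Dusp6 (50.6 ± 2.02 and 27 ± 4.54 CPM, FDR = 0.725) did not overlap between the groups and were not called. Over all genes tested, 10.9% were lower without overlap. Between 1 and 4 genes of the list were called when single libraries were left out, the fewest without 24 h replicate 3. Among growth factor receptors and ligands, 2 of 21 were higher (9.52%, against 1.61%) and 1 lower (4.76%, against 1.33%). Fgfr1, a receptor for FGF ligands, fell 2.77-fold (90.4 ± 9.96 to 33.0 ± 10.3 CPM, FDR = 2.35e-05), whereas Ret and Igf1r, the IGF1 receptor (2.18-fold, FDR = 0.00424), rose. Without 0 h replicate 3, Igf1r was not called. Lef1, a transcription factor of WNT signalling, was the called gene of 13 in its list (7.69%, against 1.33%), falling 2.15-fold (183 ± 3.65 to 85.5 ± 17.6 CPM, FDR = 0.00138).

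**Figure D3:**
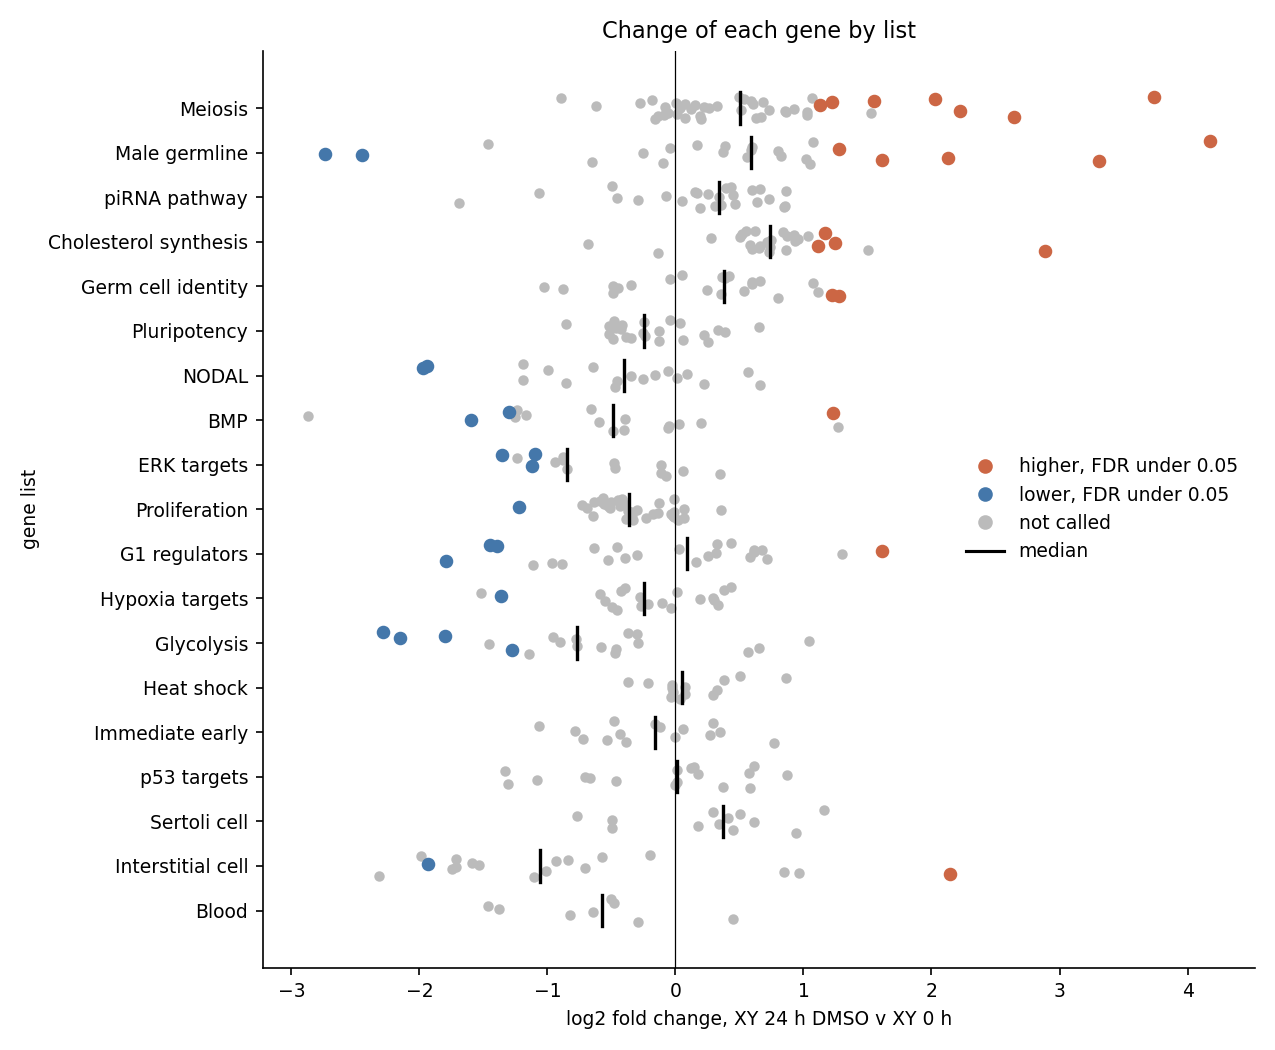
Log2 fold change between 24 h DMSO and 0 h (horizontal axis) of each tested gene of 19 lists (rows), with genes called higher in orange, lower in blue, genes not called in grey and a bar at the list's median. The medians of the ERK target and glycolysis lists lie at -0.85 and -0.77, and that of the cholesterol list at 0.74.

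None of 23 pluripotency genes was called over these 24 h, and the median was -0.25. With 2.94% of all genes tested called, a count of 0 in 23 genes is near the background. Pou5f1, the pluripotency factor whose regulatory sequence drives the reporter, was at 98.9 ± 4.01 and 94.9 ± 11.7 CPM, Nanog at 73.4 ± 2.57 and 58.9 ± 13.7 CPM and Sox2 at 303 ± 15.2 and 214 ± 28.3 CPM. L1td1, an RNA-binding protein of pluripotent cells outside that list, was among the DEGs of highest level and fell 4.44-fold. Its values were 430, 372, 395 and 429 CPM at 0 h and 86.6, 42.2, 174 and 88.5 CPM at 24 h (FDR = 8.74e-11). Of 34 genes of S phase and mitosis, Rrm2, a subunit of ribonucleotide reductase, was called lower (209 ± 13.9 to 88.8 ± 28.3 CPM, FDR = 0.00130). This single call was 2.94% of the list, near the 1.33% of all genes tested, and 4 of 34 log2 fold changes were above 0 with a median of -0.36. Mki67, a marker of dividing cells, was at 486 ± 37.7 and 320 ± 85.3 CPM without passing the test. Of 24 G1 regulators, Cdkn1b was higher (4.17%, against 1.61% of all genes tested) and 3 drivers of S phase entry were lower (12.5%, against 1.33%). Ccnd3, cyclin D3, was at 162, 177, 178 and 170 CPM and then at 66.9, 62, 86.6 and 53.3 CPM (2.73-fold lower, FDR = 3.14e-06). Ccne1, cyclin E1, fell 2.64-fold (FDR = 0.00268) and E2f2 3.47-fold (FDR = 0.00959). The groups did not overlap for any of these 3 genes, as for 199 of the 203 lower DEGs. E2f2 was not called without 0 h replicate 3 or 24 h replicate 5, and leaving out single libraries gave 0 to 1 higher and 2 to 4 lower.

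Hk1, Pfkp, Pfkl and Ldha fell among glycolytic genes. These were 4 of 19 tested (21.1%, against 1.33% of all genes tested), with none higher, a median of -0.77 and 3 of 19 above 0. Hk1, the hexokinase of the first step, fell 4.88-fold, from 54.4, 63.6, 54.4 and 47.8 CPM to 9.33, 12, 25.8 and 8.66 CPM (FDR = 2.36e-08). The phosphofructokinase subunits Pfkp (91.9 ± 18 to 21.7 ± 13 CPM, 4.45-fold, FDR = 1.16e-08) and Pfkl (36.7 ± 4.45 to 10.3 ± 1.83 CPM, 3.48-fold, FDR = 2.26e-04) and Ldha, lactate dehydrogenase A (2.42-fold, FDR = 0.0106), also fell. Leaving out single libraries called 3 or 4 genes of the list, with Ldha lost without 24 h replicate 4 or 5. Of 20 hypoxia targets, Egln3, an oxygen-sensing prolyl hydroxylase, was called (2.57-fold lower, FDR = 0.0171, 5% of the list against 1.33% of all genes tested), and the median was -0.24. Egln3 was not called under 4 of 20 alternatives, among them those without 24 h replicate 3 or 5. Psat1, an enzyme of serine synthesis, was the called gene of 24 in the amino acid response list (2.02-fold lower, FDR = 0.0497, 4.17% of the list against 1.33% of all genes tested) and was lost under 12 of 20 alternatives.

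Scd1, Dhcr7, Hsd17b7 and Mvk rose among genes of cholesterol synthesis and uptake. These were 4 of 28 tested (14.3%, against 1.61% of all genes tested), with none lower, 26 of 28 log2 fold changes above 0 and a median of 0.74. The largest rise was that of Scd1, a fatty acid desaturase that was on this list with the cholesterol genes. Scd1 was at 2.63, 3.11, 2.67 and 3.14 CPM at 0 h and 24.9, 10.4, 25.8 and 26.5 CPM at 24 h (7.39-fold, FDR = 2.23e-05). Dhcr7, which makes cholesterol in the last step, rose 2.17-fold (54.2 ± 6.71 to 118 ± 4.46 CPM, FDR = 7.98e-04), Hsd17b7 2.37-fold (FDR = 0.00349) and Mvk, mevalonate kinase, 2.24-fold (FDR = 0.0425). Mvk was not called under 11 of 20 alternatives, and 2 to 5 genes of the list were called when single libraries were left out, the fewest without 24 h replicate 5. Hmgcs1, at the head of the pathway, was at 181 ± 28.8 and 259 ± 21.2 CPM and was not called.

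Selenoprotein genes, a list made after these values were seen, held 4 decreases among 18 tested (22.2%, against 1.33% of all genes tested) and no increase. Gpx1, the cytosolic glutathione peroxidase and the lower DEG of highest level, was at 1210, 669, 711 and 618 CPM at 0 h and 284, 231, 259 and 251 CPM at 24 h (2.91-fold lower, FDR = 0.00105). The 0 h values were spread and the 24 h values close together. Selenoh fell 2.31-fold (458 ± 55.8 to 198 ± 20.2 CPM, FDR = 3.80e-05), Selenow 4.77-fold (FDR = 4.07e-07) and Txnrd1, thioredoxin reductase, 2.73-fold (FDR = 5.23e-05). All 4 were called lower under each leave-one-out fit, and all 4 were also lower in XX germ cells. Txnrd1 and Mt2, a metallothionein (4.46-fold, FDR = 0.0291), were the 2 called of 17 oxidative stress genes (11.8%, against 1.33% of all genes tested). Leaving out single libraries gave 1 or 2 lower, and edgeR also called 1 gene of the list higher. Mt2 was not called under 6 of 20 alternatives, which were the fits without any single library other than 0 h replicates 5 and 6.

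None of 15 immediate early genes, 14 heat shock genes or 17 p53 targets was called, with medians of -0.16, 0.05 and 0.01. With 2.94% of all genes tested called, counts of 0 in lists of this size are near the background.

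Other DEGs of high level included Arid4a, a chromatin regulator (145.6 ± 11.7 to 293.9 ± 10.7 CPM, FDR = 0.00329), Bnc2, a zinc finger factor of male germ cells (62.8 ± 17.5 to 197 ± 34.2 CPM, FDR = 2.76e-08), Tsc1, an inhibitor of mTOR signalling (2.06-fold, FDR = 0.00542), and Crebrf (2.34-fold, FDR = 0.00106), all higher. Socs2, a cytokine signalling inhibitor (2.14-fold, FDR = 0.00196), and Cemip2, a hyaluronidase (2.69-fold, FDR = 1.18e-05), were lower. Tet2, a methylcytosine dioxygenase, was the called gene of 15 in DNA methylation (6.67%, against 1.61% of all genes tested, from 14.9, 15, 12.5 and 16.9 to 39.9, 35.9, 37.1 and 47.6 CPM, FDR = 0.00189). In adhesion and migration, Itga6, an integrin subunit, rose 2.73-fold (FDR = 4.68e-04) and Sdc1, a heparan sulphate proteoglycan, fell 3.75-fold (FDR = 2.15e-05), among 17 tested (5.88% each way, against 1.61% and 1.33% of all genes tested). Without 0 h replicate 5 or 6, 2 were higher and 2 lower, with Sdc4 and Cxcr4 also called. Without 24 h replicate 2 or 3 Cxcr4 was also called, and without 24 h replicate 4 or 5 Sdc4. None of 33 imprinted genes was called, which is near the background of 2.94% of all genes tested. Peg12 was lower without 0 h replicate 2, and edgeR called 2 of the list lower.

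Among the markers of gonadal somatic cells, Rspo1, a WNT agonist, rose 4.42-fold (2.63, 5.19, 7.13 and 5.09 to 29.6, 24, 14.4 and 21.9 CPM, FDR = 2.54e-04) and Col1a2, a fibrillar collagen, fell 3.83-fold (80.7, 61.7, 174 and 83.9 to 23.8, 18.8, 34.4 and 17.9 CPM, FDR = 0.00260). The whole interstitial list was at 177 to 428 CPM at 0 h and 84.7 to 117 CPM at 24 h, with a median of -1.06 over 18 tested genes. Rspo1 and Col1a2 were 5.56% of these each, against 1.61% higher and 1.33% lower among all genes tested. The part of somatic RNA in these changes was not tested. None of 12 Sertoli cell, 5 endothelial or 8 blood genes tested was called, which is near the background of 2.94% of all genes tested. Without 24 h replicate 5, Sox9, Col9a3 and Mro of the Sertoli cell list were called higher, and Col1a2 was not called. By edgeR, 4 interstitial genes were called lower.

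XX germ cells over the same 24 h gave 354 higher (2.32%) and 139 lower DEGs (0.911%), from libraries that share none with the XY comparison. The DEGs higher in both sexes numbered 41, which is 16.7% of those in XY and 11.6% of those in XX. The 36 lower in both were 17.7% and 25.9%. In XX cells, 204 of the 246 genes higher in XY had a log2 fold change above 0, with a median of 0.81, and 189 of the 203 lower genes were below 0, with a median of -0.89. Over all 15252 genes the log2 fold changes of the sexes correlated at r = 0.391, as a description across genes. All 7 meiotic DEGs were higher in XX too. Stra8 was at 92.7 ± 16.1 CPM at 0 h and 972 ± 263 CPM at 24 h in XX cells, above the XY levels at both times, while its log2 fold changes of 3.27 in XX and 3.74 in XY did not differ by the test (FDR = 1). Crebrf, L1td1, Gpx1, Socs2, Scd1, Erg and Brdt also changed the same way in both sexes, with and without subtraction of index partners. Bnc2 was called higher in both, but in XX 155 of its 518 counts at 24 h were expected from the partners and it was not called after subtraction (log2 fold change 1.14, FDR = 0.112).

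The change in XY less the change in XX passed the test for 69 genes, 36 positive (0.236%) and 33 negative (0.216%). Of the positive ones 20 were DEGs higher in XY and 4 DEGs lower in XX, and of the negative ones 10 were lower in XY and 14 higher in XX. Pdzk1, a scaffold protein of membrane transporters, was at 11.4, 7.26, 5.35 and 14.9 CPM at 0 h and 65.8, 169, 67.4 and 92.8 CPM at 24 h in XY cells, and at 13 ± 4.87 and 11.8 ± 2.64 CPM in XX cells (difference 3.48 ± 0.43 on the log2 scale, FDR = 5.35e-05). Anxa2, a membrane-binding annexin, rose 5.82-fold in XY and was at 20.5 ± 5.03 and 16.6 ± 2.83 CPM in XX (difference 2.73, FDR = 0.00121). Ddr2, a collagen receptor, had 2 counts in the XY 0 h libraries and 56 at 24 h, while in XX it had 9 and then 0 (difference 5.79, FDR = 7.53e-04). Synj2 and Sytl3, genes of membrane traffic, rose 5.41-fold and 6.18-fold in XY and were not called in XX (differences 3.37 and 3.67). Tet2 and Id4 rose in XY and were not called in XX (differences 1.76 and 1.43), and the difference for Id4 was not called under 13 of 28 alternatives. Tcl1, a co-activator of AKT in pluripotent cells, was at 109 ± 21.3 and 137 ± 17.6 CPM in XY, while it fell from 103 ± 7.84 to 35.0 ± 8.90 CPM in XX (difference 1.81, FDR = 9.6e-05). For Nanos3 the difference was 2.41 (FDR = 0.00376), with neither sex called alone before subtraction. In XX, 30.8 of its 115 counts at 24 h were expected from partners. After subtraction its fall in XX was called (log2 fold change -1.73, FDR = 0.0407). Xist, the X inactivation RNA, rose in XY from 2.83 ± 1.59 to 11.9 ± 5.67 CPM (FDR = 0.0303) and was at 11.7 ± 2.58 and 4.84 ± 2.21 CPM in XX (difference 3.48). Its rise in XY was not called under 5 of 20 alternatives, among them those without 0 h replicate 2 or 3 or 24 h replicate 3 or 5, and 24 h replicate 3 stood apart at 20.3 CPM.

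**Figure D4:**
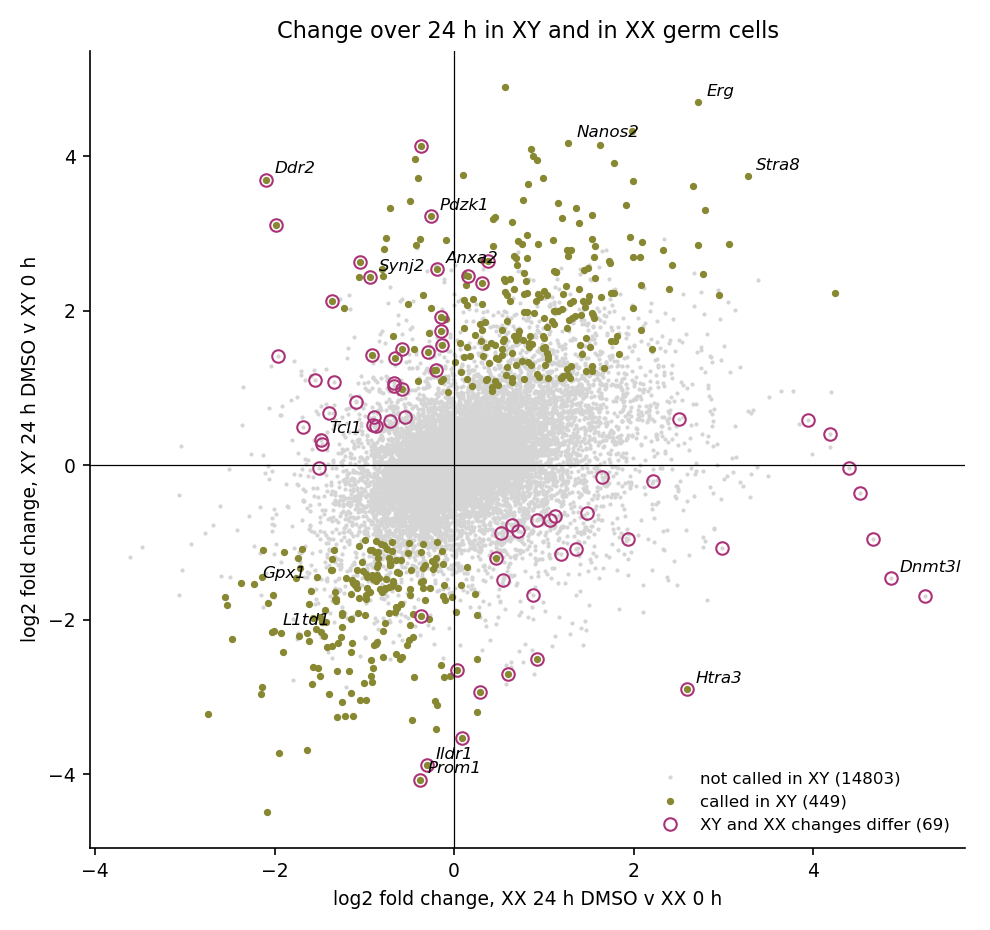
Log2 fold change over 24 h with DMSO in XY germ cells (vertical axis) against that in XX germ cells (horizontal axis) for each gene tested. Green points are the 449 DEGs of XY cells, and circles mark the 69 genes whose changes differed between the sexes, such as Ddr2 at the upper left and Htra3 at the lower right.

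Prom1, Ildr1 and Fermt1 fell in XY and were not called in XX. Prom1 was at 23.5 ± 2.28 and 17.7 ± 4.82 CPM in XX (difference -3.69, FDR = 0.0112), and the differences for Ildr1 and Fermt1 were -3.58 and -3.23, the latter not called under 13 of 28 alternatives. Htra3, a serine protease of low level, was the DEG with opposite calls, lower in XY (2.22 ± 1.10 to 0.430 ± 0.860 CPM) and higher in XX (0.876 ± 0.481 to 6.01 ± 3.10 CPM). Its fall in XY was not called in 10 of the 17 alternatives that tested it. Spocd1, Dnmt3l and Tdrd9, genes of late foetal male germ cells, also had large negative differences and were called higher in XX at 24 h. Their index partners were XY 72 h FGFRi libraries (72 h with an inhibitor of FGF receptors). Of the 79 counts of Spocd1 in XX at 24 h, 101 were expected from the partners, and of the 88 of Dnmt3l, 94.9. For 8 of the 33 negative genes the expectation was over 50% of the XX 24 h counts. After subtraction the differences were 0.30 for Spocd1, 0.31 for Dnmt3l and -1.32 for Tdrd9 (FDR = 1 each). In all, 35 of the 36 positive and 24 of the 33 negative differences were called after subtraction.

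Levels at 72 h, from the other pool, and after 24 h with MEKi are given side by side, with no test and no subtraction. The 24 h MEKi libraries had no index partner, unlike the 24 h DMSO libraries. Of the counts at 24 h with DMSO, 564 of 1111 for Stra8 and 7.43 of 224 for Nanos2 were expected from partners. Nanos2 was at 21.8 ± 11.7 CPM at 24 h and 27.3 ± 1.30 CPM at 72 h with DMSO, Lefty2 at 75.0 ± 17.9 and 2.41 ± 0.613 CPM, Nanog at 58.9 ± 13.7 and 5.34 ± 4.20 CPM, and Scd1 at 21.9 ± 7.68 and 4.37 ± 2.61 CPM. With MEKi for 24 h, Nanos2 was at 1.94 ± 0.694 CPM, Ret at 2.10 ± 1.52 CPM, Etv4 at 1.73 ± 1.32 CPM, Lefty2 at 100 ± 14.3 CPM and Stra8 at 479 ± 68.0 CPM.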

How the data were processed

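Germ cells were sorted from pooled gonads, and poly(A)-primed libraries with sample indexes and unique molecular identifiers were sequenced. Per the authors' methods, scPipe split the reads by index, Rsubread placed them on GRCm39, and exons were counted by strand. The deposited values are whole-number counts of collapsed identifiers per gene, not normalized. The methods and the code of the authors give different identifier lengths, and which applies is not given in the sources used here. The annotation release is not given either, so gene names came from GENCODE vM39, which held 40391 of the 42422 genes (unmatched genes held 1.05% of counts).

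All 40 libraries were fitted with 1 mean per group in limma 3.58.1, following the authors' test. Genes passed edgeR 4.0.16 filterByExpr (minimum count 10, total 15), counts were scaled by TMM, and voomWithQualityWeights and treat with a fold of 1.5 were run in R 4.3.3, with Benjamini-Hochberg adjustment over 15252 genes. Values under FDR are adjusted p-values of this test, and errors of log2 fold changes are standard errors. The XY change less the XX change was a contrast of the same fit. On simulated data, 17.3% of 110 genes with a log2 change of 1 and 86.7% of 90 genes with a change of 2 were recovered for the XY comparison, with 0 false calls among 15012 genes. Shares of counts used exact permutation over 70 regroupings.

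Alternatives were edgeR quasi-likelihood and DESeq2 1.42.0 tests, an unshifted test with an observed fold over 1.5, RLE scaling, other filters, fewer libraries, no quality weights, a replicate block, subtraction of index partners' counts and leaving out each library. Named genes were list members, the 20 largest non-overlapping changes and the 10 DEGs of highest level in each direction, and the 10 largest differences between the sexes in each direction. The gene lists and comparisons were chosen with earlier results of these data known. Depth was 1178953 to 3894977 counts per XY library. The labels give replicates as separate libraries. Per the authors' methods, each sample was a pool of several gonads. Whether the cultured libraries came from separate cultures is not given, so p-values measure the spread between libraries, which may be partly technical. The net share used for index subtraction was added after seeing the data. All columns of the count table were used. Some items are not reported here.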

Additional observations from a re-analysis of the deposited data

Results flagged for a closer look

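In 19 of 232 groups of 4 libraries, 1 library lay far from the others, where chance alone gives about 1 in 20. The 24 h replicate 3 was high for Ddx4 (300 CPM), Septin12 (11.5 CPM), Xist (20.3 CPM) and Spocd1 (10.4 CPM), and low for Etv4 (17.2 CPM) and Scd1 (10.4 CPM). The 24 h replicate 2 was high for Id2 (10.4 CPM) and Id3 (51.3 CPM). The 24 h replicate 4 was high for Prom1 and Htra3 (1.72 CPM each) and low for Dhcr7 (112 CPM). At 0 h, replicate 2 was high for Gpx1 (1210 CPM), Socs2 (438 CPM), Atp6v0a4 (1.75 CPM) and Adcy10 (0.439 CPM), replicate 3 for Txnrd1 (108 CPM) and replicate 6 for Bnc2 (89 CPM). The 0 h replicate 5 was low for Nanog (69.5 CPM) and high for the gonadal somatic share (0.0566%).

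The change over 24 h differed between the sexes for 69 genes, by the test of the difference itself. On the log2 scale, XY less XX, the difference was 5.79 for Ddr2, 5.09 for Adcy10, 3.67 for Sytl3, 3.48 for Xist and for Pdzk1, 3.37 for Synj2, 2.73 for Anxa2, 2.41 for Nanos3, 1.81 for Tcl1, 1.76 for Tet2 and 1.43 for Id4. It was -6.93 for Spocd1, -6.32 for Dnmt3l, -5.49 for Htra3, -4.44 for Nxf2, -4.05 for Tdrd9, -3.69 for Prom1, -3.58 for Ildr1 and -3.23 for Fermt1. With the index partners' counts subtracted, the difference was 0.302 for Spocd1 and 0.311 for Dnmt3l (FDR = 1 each), and with the net share it was -1.31 and -1.69 (FDR = 1 each). After the first subtraction, the difference for Tdrd9 was -1.32 (FDR = 1), that for Nxf2 was -5.03 (FDR = 0.0145) and that for Adcy10 had FDR = 0.0679.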

How the results depend on the processing

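The 449 DEGs in XY cells became 364 with DESeq2 (which called 190 of the 246 higher and 147 of the 203 lower DEGs), 702 with edgeR, 2330 with an unshifted test and an observed fold over 1.5, and 263 to 455 when single libraries were left out, the lowest without XY 0 h replicate 3. The 493 in XX cells became 540, 1101, 3008 and 318 to 470, the lowest without XX 0 h replicate 4. The 69 differences between the sexes became 81, 177, 1297 and 44 to 77, the lowest without XX 0 h replicate 5, and 212 after subtraction of index partners or 126 with the net share. Differences for Dnmt3l and Spocd1 changed sign after subtraction, to 0.311 and 0.302, but not with the net share (-1.69 and -1.31), and neither was called under either share. With the replicate number as a block, 417 DEGs were called in XY, 138 in XX and 22 differences, but the numbers do not show pairing: same-numbered XY libraries had deviations correlated at 0, -0.071 and -0.06. The cause of these shifts was not tested. The mitochondrial share, lower by 0.0251 percentage points at 24 h, ranged from -0.142 to 0.113 when single libraries were left out, and was higher without XY 0 h replicate 5 (0.113) or XY 24 h replicate 5 (0.0621). Without a filter on low counts 330 of 40820 genes were called in XY. Among 85 named XY genes, 1528 repeats kept the call, 154 lost it and 0 changed direction. Power was low for small changes.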
